A study of Mus musculus with 18 samples.

Results

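The neuropeptide and granin genes examined were 10 of the 19937 genes with a probeset of their own: the peptide precursors Penk, Tac1, Nts, Gal, Cck, Adcyap1, Gnrh1 and Nmu, and the granin family genes Scg2 and Vgf. Each was taken as its brightest probeset assigned to 1 gene, and each had 1 such probeset. The study measured total RNA of dissected mouse hypothalamus on 18 whole-transcript arrays, to compare mice lacking Wfs1 with wild-type mice. Wfs1 encodes wolframin, a membrane protein of the endoplasmic reticulum that is mutated in Wolfram syndrome. The mice carried the 129SV background according to the sample labels and 129S6 according to the series text. No treatment, age or sex was used here. Each array has a genotype in the ending of its title and another in its genotype field, and these contradict each other on 9 arrays. The label sets are therefore written as ending/field: ko/KO (5 arrays), ko/WT (5), wt/KO (4) and wt/WT (4). Which of them gives an animal's real genotype was left undecided, and both were tested. The labels do not say that the arrays came from separate animals, so every p-value measures the spread between these arrays, which may be technical.

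Neuropeptides are cut from larger precursors inside dense-core granules and released upon calcium entry. Prohormone convertases cleave at basic residues, carboxypeptidase E trims the ends, and peptidylglycine monooxygenase amidates many of the products. Granins such as secretogranin II (Scg2) and Vgf are stored in the same granules and are themselves cut into peptides. Penk yields the enkephalins, Tac1 substance P and neurokinin A, Nts neurotensin, Gal galanin, Cck cholecystokinin and Adcyap1 the peptide PACAP. Gnrh1 encodes the releasing hormone of the gonadotropins, and Nmu encodes neuromedin U, which acts on feeding and stress responses. Several of these genes are known to respond to cyclic AMP, whose response element has the consensus sequence TGACGTCA.

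Promoter sequences are shown because levels of some members correlated across arrays, as described further on. RefSeq windows of the build GRCm38.p6 were at hand for 7 of the 10 members, 8 windows in all, with 250 bases before and 50 after the annotated start. The full element TGACGTCA was in 1 member, Scg2, and in 1.79% of all 32851 windows. The shorter core TGACG, searched on both strands and contained within the full element, was in 8 of the 8 member windows and in 20.8% of all windows. The first lines below give the 250 bases before the start of Scg2 (chr1:79440027-79440276, minus strand) and Tac1 (chr6:7554811-7555060, plus strand), the pair of members with the highest correlation. The shorter lines give 35 bases around the core of Cck (chr9:121495722-121495756, minus strand), Adcyap1 (chr17:93198911-93198945, plus strand), Nts (chr10:102490565-102490599, minus strand) and Nmu (chr5:76363872-76363906, minus strand). All run 5′ to 3′ along the gene, and capitals mark TGACGTCA, TGACG or its reverse complement CGTCA.
Scg2: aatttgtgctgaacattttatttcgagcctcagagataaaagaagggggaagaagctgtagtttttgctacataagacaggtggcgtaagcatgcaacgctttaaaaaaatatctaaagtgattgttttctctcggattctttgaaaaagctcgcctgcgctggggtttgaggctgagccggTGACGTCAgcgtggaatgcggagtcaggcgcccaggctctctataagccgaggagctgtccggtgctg
Tac1: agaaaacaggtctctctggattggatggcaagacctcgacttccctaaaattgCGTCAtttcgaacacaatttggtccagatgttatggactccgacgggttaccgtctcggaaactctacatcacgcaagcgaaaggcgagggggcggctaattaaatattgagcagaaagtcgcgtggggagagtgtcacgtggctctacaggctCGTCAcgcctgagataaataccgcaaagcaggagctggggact
Cck: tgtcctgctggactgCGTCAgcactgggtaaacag
Adcyap1: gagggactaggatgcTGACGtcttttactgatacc
Nts: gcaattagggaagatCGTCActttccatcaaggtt
Nmu: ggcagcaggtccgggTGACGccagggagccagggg

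The element of Scg2 starts at position -68, and the cores of Tac1 lie at -197 and -43. The others are at -47 (Cck), -91 (Adcyap1, the same site as at -242 in its other, overlapping window), -166 (Nts) and -114 (Nmu), and that of Gal lies after the start, at position 20. A match describes these letters only and shows neither binding nor a cause of any level.

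The 18 arrays had like overall signal, with medians between 7.10 and 7.19 log2 and standard deviations between 1.93 and 2.04 log2. Of 21 other hypothalamic peptide genes 20 were measured, and 12 of these were above the array's median signal on every array, among them Pmch (11.36 to 12.10 log2), Oxt (10.02 to 11.15 log2), Avp (9.44 to 10.89 log2) and Hcrt (9.11 to 10.06 log2). The other 8 were not, and 1 of them, Crh, fell below the lower quartile on 1 array. These genes were picked for naming after their values were seen. Markers of neighbouring tissue varied too: the mean level of 11 measured of 12 choroid plexus markers ran from 6.80 to 6.99 log2 on arrays ending ko and from 6.70 to 7.70 log2 on arrays ending wt, and the choroid plexus gene Ttr ranged from 8.01 to 12.80 log2. By genotype field, that mean ran from 6.70 to 6.99 log2 on field KO and from 6.83 to 7.70 log2 on field WT. Of 8 measured pituitary markers, 5 were below the lower quartile of signal on no array and 2 on all 18. Above the array's median on every array were 11 of 11 thalamic markers, 9 of 10 striatal and 8 of 11 cortical and hippocampal. So were 8 of 12 septal, preoptic and amygdalar, 2 of 11 choroid plexus and 1 of 8 pituitary markers. The thalamic mean ran from 9.63 to 9.997 log2 on ending ko and from 9.59 to 9.87 log2 on ending wt. How much RNA came from neighbouring tissue was not tested. In whole tissue, fewer cells of a type and less RNA per cell cannot be told apart.

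Among the peptide precursors, Gal varied most. It read 7.41, 7.52, 7.38, 7.45 and 7.26 log2 on the ko/KO arrays, 7.34, 7.51, 7.74, 7.11 and 7.58 on ko/WT, 8.02, 7.43, 7.67 and 7.17 on wt/KO, and 6.99, 7.52, 7.56 and 6.88 on wt/WT. The highest and lowest arrays both end in wt, a 2.20-fold span, and the SD of Gal was larger than that of 97.0% of genes. Tac1 read 10.17, 9.84, 9.90, 10.31 and 10.50 log2 on ko/KO, 9.86, 9.73, 10.19, 9.70 and 10.34 on ko/WT, 10.34, 10.28, 10.10 and 9.97 on wt/KO, and 9.80, 10.09, 10.08 and 9.93 on wt/WT. Its span was 1.74-fold, its SD exceeded that of 93.6% of genes, and every label set overlapped every other. The granin Scg2 read 11.05, 10.89, 11.01, 11.20 and 11.36 log2 on ko/KO, 11.01, 10.90, 11.14, 10.96 and 11.24 on ko/WT, 11.25, 11.24, 11.06 and 11.08 on wt/KO, and 10.97, 11.08, 11 and 11.01 on wt/WT. The arrays high in Tac1 were also high in Scg2.

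The remaining members spanned smaller or similar ranges. Penk lay between 10.05 and 10.72 log2, and its wt/KO arrays stayed within 10.42 to 10.48 while wt/WT ran from 10.05 to 10.61. Cck lay between 10.77 and 11.43 log2, Adcyap1 between 9.04 and 9.60, Nts between 7.64 and 8.14, Nmu between 6.19 and 6.87, and Gnrh1 between 6.71 and 7.38. The upper end of Gnrh1 was 1 ko/KO array, and the next highest array in that set read 6.91. Vgf was the steadiest member, at 9.12 to 9.44 log2, with an SD larger than that of 20.9% of genes. Over all genes the median SD was 0.13 and the median range 0.50 log2. Signal was below the array's median on 18 of 18 arrays for Nmu, on 16 for Gnrh1 and on 4 for Gal, and below its lower quartile on none for any member.

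**Figure D1:**
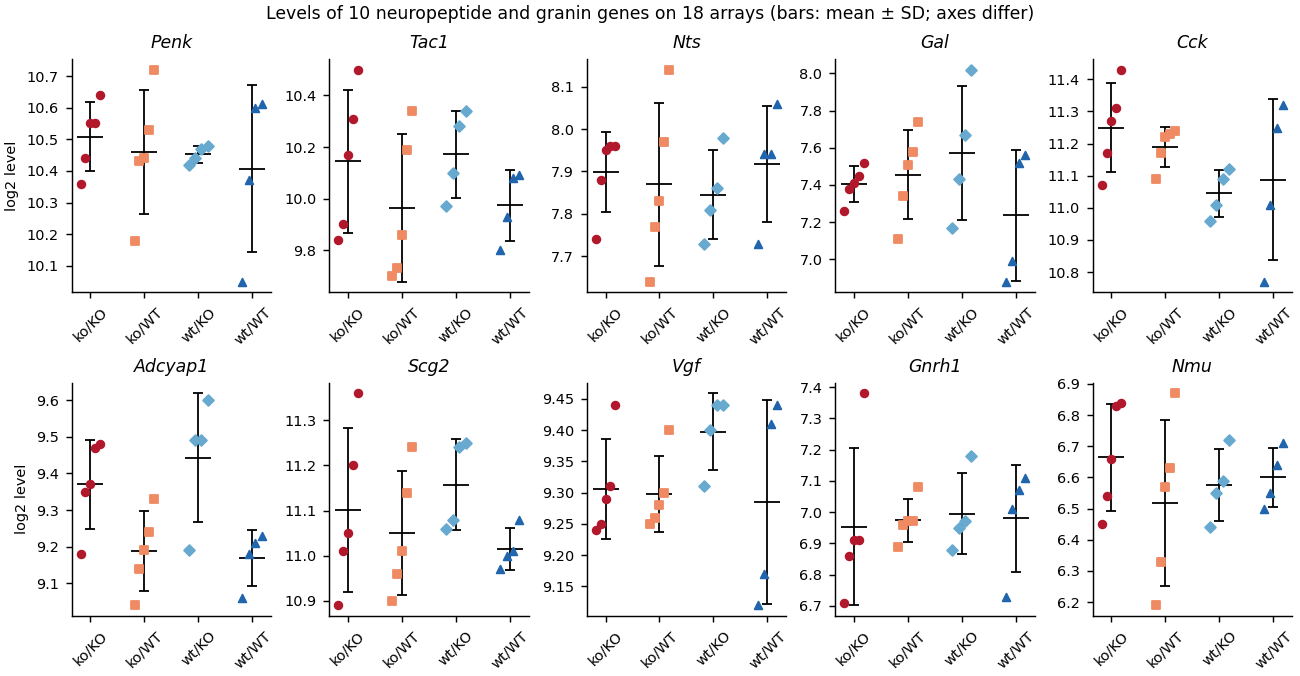
Levels of the 10 members (vertical axes, log2, a separate scale per panel) on each array, by label set (title ending/genotype field); points are arrays, and bars are the mean ± SD. The label sets overlap in most panels, and Adcyap1 reads 9.37 (mean) on ko/KO and 9.44 on wt/KO against 9.19 on ko/WT and 9.17 on wt/WT.

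No member differed between genotype labels after adjustment. With limma and Benjamini-Hochberg adjustment over all 19937 genes, 0 genes (0%) passed 0.05 by title ending, 0 (0%) by genotype field, 0 (0%) between ko/KO and wt/WT, 0 (0%) between ko/WT and wt/KO, and 0 (0%) for the difference between endings by field. At an unadjusted p under 0.05 these fits held 923, 1386, 2218, 546 and 1033 genes. Adcyap1 had the smallest p of the members by genotype field. It read 9.18, 9.35, 9.37, 9.47 and 9.48 log2 in order of size on ko/KO, 9.19, 9.49, 9.49 and 9.60 on wt/KO, 9.04, 9.14, 9.19, 9.24 and 9.33 on ko/WT, and 9.06, 9.18, 9.21 and 9.23 on wt/WT. The means were 9.40 ± 0.14 log2 (SD, n = 9) for field KO and 9.18 ± 0.09 log2 (SD, n = 9) for field WT, and 2 arrays of field KO lay within the range of field WT. The difference was 0.22 log2 (SE 0.06), with an unadjusted limma p of 0.00079 and an adjusted p of 0.694. The difference of ending ko from ending wt was 0.20 log2 (SE 0.08) on the agreeing arrays and -0.25 log2 (SE 0.09) on the contradicting ones, so that field KO had the higher mean in both. Of the tissue markers, 10 of 11 for choroid plexus had a lower mean in field KO (median -0.10 log2), as had 9 of 11 for thalamus (median -0.05 log2). So had 7 of 8 for pituitary (median -0.06 log2), while 14 of 20 other hypothalamic peptide genes were higher (median 0.05 log2). Cortical, striatal and septal lists were more evenly split, with 6 of 11, 6 of 10 and 7 of 12 lower. The median over all genes was -0.006 log2, and no listed gene passed adjustment. The difference of Ttr was -1.18 log2 (SE 0.40), with an unadjusted limma p of 0.0081. The part of tissue content in the difference of Adcyap1 was not tested.

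Cck had the smallest p by title ending. It read 11.43, 11.31, 11.27, 11.17 and 11.07 log2 on ko/KO, 11.23, 11.22, 11.09, 11.24 and 11.17 on ko/WT, 11.01, 10.96, 11.09 and 11.12 on wt/KO, and 10.77, 11.01, 11.32 and 11.25 on wt/WT. Arrays ending ko averaged 11.22 ± 0.11 log2 (SD, n = 10) and those ending wt 11.07 ± 0.17 log2 (SD, n = 8), and the ranges overlapped. By limma the difference was 0.15 log2 (SE 0.06), with an unadjusted limma p of 0.026 and an adjusted p of 0.884. By genotype field it was 0.01 log2 (SE 0.07). By ending, 9 of 11 thalamic markers were higher (median 0.10 log2), as were 9 of 12 septal, preoptic and amygdalar markers. Lower were 10 of 11 choroid plexus markers (-0.11 log2), 16 of 20 other hypothalamic peptide genes (-0.04 log2) and 6 of 8 pituitary markers. Striatal (6 of 10 higher) and cortical (5 of 11) markers were split. Cck had r = 0.40 with the thalamic mean, 0.44 with the striatal and 0.14 with the cortical. The part of tissue content in the difference of Cck was not tested. For the other 8 members the adjusted p was at least 0.903 by ending and at least 0.694 by field. Differences between endings did not differ by field for any member at the threshold (adjusted p at least 0.927). None of the 17 measured of 18 dense-core granule and processing genes passed by ending, with 10 higher, 7 lower and a median of 0.01 log2. None passed in the other fits either, where 13 were higher and 4 lower by field (median 0.03 log2), 15 and 2 between ko/KO and wt/WT (0.04 log2), and 3 and 14 between ko/WT and wt/KO (-0.04 log2). The difference of ending ko from ending wt was smaller in field KO than in field WT for 17 of 17, with a median of -0.10 log2 against -0.01 over all genes and 3 at an unadjusted limma p under 0.05. For the choroid plexus markers it was larger in field KO for 11 of 11. Their median was 0.29 log2, with 4 at an unadjusted limma p under 0.05 and none after adjustment. The part of tissue content in the shift of the granule genes was not tested. By ending, none of the 19 receptor genes passed either, with 9 higher, 10 lower and a median of -0.01 log2, against a median of 0.003 log2 over all genes.

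Most pairs of members had a positive correlation across arrays. Of their 45 pairs, 35 (77.8%) had a Pearson r above 0 and 10 below, with a median of 0.36, and 12 (26.7%) reached 0.5. Over all pairs of genes 51.0% were above 0, with a median of 0.01, and 8.59% reached 0.5; without the dimmest 40% of genes these were 57.4%, 0.08 and 12.2%. Of these, 6 pairs are named because limma, fitted along the level of 1 of the pair, gave the other an adjusted p below 0.05 over the 19936 other genes, and the pair of lowest r is named too. The share of all genes so called was 13.5% along Tac1, 17.9% along Scg2 and 0.456% along Adcyap1. The permutation p-values of the 6 pairs come from the same arrays that chose them and are not adjusted over the 45 pairs. They add no separate support. The strongest pair was Tac1 with Scg2, at r = 0.93 and rho = 0.93 over 18 arrays. Both had a permutation p of 2e-05, the smallest 100000 resamples can give, and the limma adjusted p was 0.0015 along Tac1 and 5.1e-05 along Scg2. The relation stood at 0.92 without the 2 arrays farthest from the median of Tac1. It was 0.95 and 0.89 within endings ko and wt, and 0.94 and 0.93 within fields KO and WT. In a ranking of all genes by r, Scg2 came first along Tac1, and Tac1 came after 2 others along Scg2.

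Tac1 also rose with Adcyap1 (r = 0.73, rho = 0.72, permutation p = 0.0011 and 0.0012), Nmu (r = 0.72, rho = 0.68, permutation p = 0.00054 and 0.0021) and Nts (r = 0.65, rho = 0.63, permutation p = 0.0039 and 0.0054). Scg2 rose with Nmu (r = 0.67, rho = 0.69, permutation p = 0.0017 for each) and Adcyap1 (r = 0.66, rho = 0.61, permutation p = 0.0032 and 0.008). Without the 2 farthest arrays these r values were 0.69, 0.59, 0.60, 0.58 and 0.56 in that order. Within ending wt, Tac1 had r = 0.29 with Nmu and 0.24 with Nts, against 0.82 for each within ending ko, a difference that was not tested. These calls were less stable than that of Tac1 with Scg2. The limma adjusted p of Tac1 with Adcyap1 was 0.013 along Tac1 and 0.047 along Adcyap1. The other calls did not pass along the partner. The limma adjusted p was 0.014 along Tac1 and 0.366 along Nmu, and 0.036 along Tac1 and 0.751 along Nts. For Scg2 it was 0.018 along Scg2 and 0.408 along Nmu, and 0.020 along Scg2 and 0.080 along Adcyap1. Without array 5 of ko/KO the calls of Tac1 with Nmu (r = 0.67) and of Scg2 with Nmu (r = 0.60) and Adcyap1 (r = 0.63) were lost, and the last was also lost without array 1 of wt/KO (r = 0.61). With each label set's mean removed, the calls of Adcyap1 with Tac1 (r = 0.69) and with Scg2 (r = 0.60) were lost. The call of Tac1 with Nts was lost without any 1 of 7 arrays, with r between 0.58 and 0.67: arrays 2, 4 and 5 of ko/KO, arrays 1, 4 and 5 of ko/WT and array 2 of wt/KO. Arrays are numbered within a label set in the order in which the values of Gal, Tac1, Scg2 and Cck are listed.

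Cck had r below 0 with 6 of the 9 other members. The lowest of the 45 pairs was Cck with Scg2, at r = -0.37 and rho = -0.55, given with no p because the pair was chosen for this value. It was -0.64 and -0.22 within endings ko and wt, and -0.70 and -0.08 within fields KO and WT. Without array 1 of wt/WT, the lowest in Cck, r was -0.64, and without the 2 farthest arrays it was -0.71. Gnrh1 had r below 0 with 4 members, and its median r with the others was 0.04. Penk and Gal had r above 0 with every other member, with medians of 0.38 and 0.31. Gal with Cck was close to 0, at r = 0.005 and rho = -0.12.

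**Figure D2:**
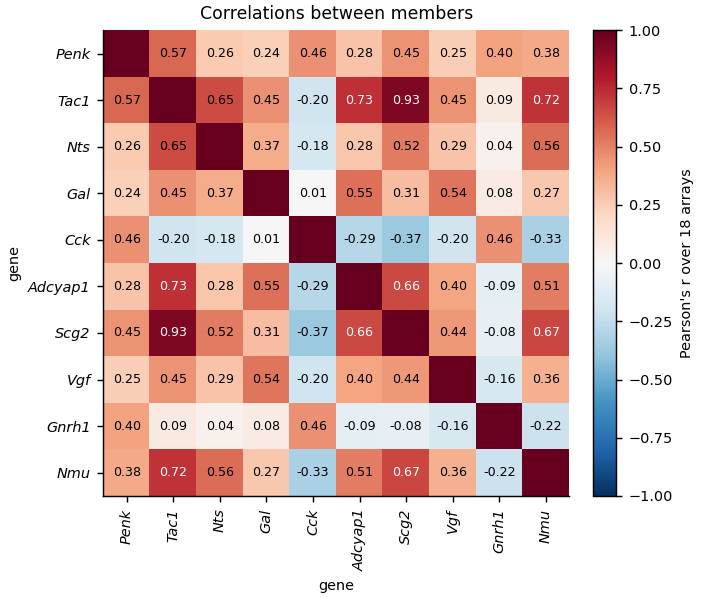
Pearson's r between the 10 members over 18 arrays (colour from -1 to 1, value printed in each cell). Tac1 and Scg2 reach 0.93, and the row of Cck holds 6 values below 0.

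**Figure D3:**
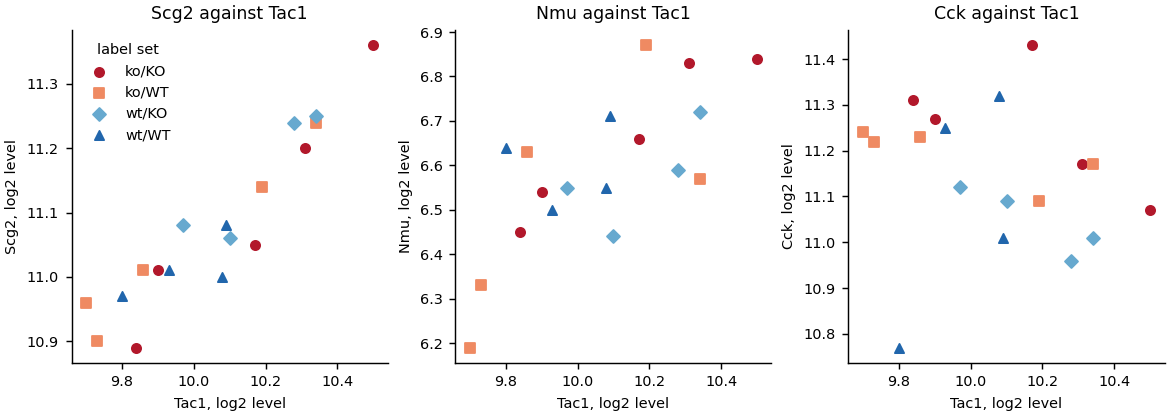
Scg2, Nmu and Cck (vertical axes, log2) against Tac1 (horizontal axes, log2), 1 point per array, marked by label set. Scg2 climbs with Tac1 through all 4 label sets, Nmu with more scatter (r = 0.72).

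Much of the array moved along with these genes. Along Tac1, 2696 genes were called (13.5% of those tested, 1524 with it and 1172 against), and along Scg2 3567 (17.9%, 1888 with and 1679 against). Of the 9 other members, 4 were called along Tac1 and 3 along Scg2, all of them with the gene and none against. Along Penk 216 genes were called (1.08%), along Adcyap1 91 (0.456%) and along Nmu 2 (0.01%), of which 0, 1 and 0 were members. Leaving out each array, these counts ran from 0 to 706 along Penk (0 without array 1 of wt/WT, 706 without array 3), from 0 to 872 along Adcyap1 (0 without any 1 of 6 arrays, 872 without array 2 of ko/KO) and from 0 to 4 along Nmu (0 without any 1 of 14 arrays). Along Nts, Gal, Cck, Vgf and Gnrh1, 0% were called. The first principal component of all genes held 29.0% of the variance. Its r was 0.73 with Scg2, 0.70 with Tac1, 0.59 with Adcyap1 and 0.51 with Penk, and 21.0% of all genes exceeded 0.7 in size. The SD of signal on an array had r = 0.60 with Scg2 and 0.56 with Tac1. With that component removed, Tac1 with Scg2 kept r = 0.86, with an adjusted p of 0.016 along Scg2 and 0.084 along Tac1, and the genes called fell to 0 along Tac1 and 25 along Scg2. The other 5 calls were lost, although r was about as large for Tac1 with Nmu (0.74) and Nts (0.62) and for Scg2 with Nmu (0.68), and smaller for Adcyap1 with Tac1 (0.55) and Scg2 (0.42). Over that and the other alternatives tested, the lower of the adjusted p-values of Tac1 with Scg2 ran from 3.7e-05 to 0.016, and the call was not lost. With quantile normalization 674 genes were called along Tac1 (489 with, 185 against) and 1142 along Scg2 (735 with, 407 against). Without the dimmest 40% of genes the counts were 2597 along Tac1 (21.7%, 1887 with and 710 against) and 3170 along Scg2 (26.5%, 2214 with and 956 against). The Tac1 count was 489 without array 5 of ko/KO, 1388 without array 5 of ko/WT, 1673 without array 1 of wt/KO, 1761 without array 2 of ko/KO and 4634 without array 4 of ko/WT. The Scg2 count was 1026 without array 5 of ko/KO, 2211 without array 5 of ko/WT and 2057 without array 2 of ko/KO.

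Some genes that make and process granule contents rose with Tac1 and Scg2. Of 17 measured, 4 (23.5%) were called with Tac1 and none against, beside 13.5% of all genes and 21.7% of those left without the dimmest 40%, which hold all 17: Scg3, a granin that sorts cargo (r = 0.85), Pam, the amidating enzyme (0.81), Qpct, which forms pyroglutamate ends (0.79), and Pcsk1, a prohormone convertase (0.79). With Scg2 5 (29.4%) were called and none against, beside 17.9% and 26.5%, namely Scg3 (r = 0.88), Pam (0.86), Qpct (0.84), Pcsk1 (0.65) and the vesicular monoamine transporter Slc18a2 (0.56). The shares without the dimmest 40% come from a separate fit, adjusted over 11961 genes, so they are not at a like threshold. They also count both directions, with 1887 genes called with Tac1 and 710 against, and 2214 with Scg2 and 956 against. Whether the list was called more often than bright genes was not tested. The list's median r was 0.30 with Tac1 and 0.45 with Scg2, against -0.12 and -0.14 over all genes. Those all-gene medians include the dimmest 40%, which hold none of the list, and no median over bright genes alone was computed. The gap in median r is therefore not a comparison at like brightness. The classical granins did not follow: Chga had r = -0.13 and Chgb 0.20 with Scg2. With Gal, where no gene was called, the list's median r was 0.38 and Chgb reached 0.64.

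Of the 19 receptor genes, the kappa opioid receptor gene Oprk1 was called with Tac1 (r = 0.63) and Scg2 (r = 0.74), Tacr2, a tachykinin receptor gene, against both (r = -0.72 and -0.66), and Tacr3, another, with Scg2 (r = 0.65). The remaining receptor genes were called along neither. At 2 of 19 (10.5%) and 3 of 19 (15.8%), receptors were called no more often than all genes (13.5% and 17.9%). Tacr1, the receptor of substance P, had r = 0.04 with each. Among other hypothalamic peptides, 3 of 20 (15%) were called with Tac1 and 4 with and 1 against Scg2 (25%). Their mean level had r = 0.81 with Gal and 0.62 with Vgf, but 0.28 with Tac1 and 0.09 with Scg2. Immediate early genes gave 0 calls along Tac1 and 3 of 18 (16.7%) against Scg2. Of 8 measured pituitary markers, 4 were called against Scg2. Most of the 8 were dim: 3 were kept without the dimmest 40% of genes, and 1 was above the array's median on every array. Over all genes 1679 were called against Scg2, and 956 without the dimmest 40%. The mean level of the pituitary markers had r = -0.69 with Scg2. It ran from 6.15 to 6.50 log2 on arrays ending ko and from 6.15 to 6.49 on those ending wt. The mean of the cortical and hippocampal markers had r = -0.53 with Scg2 and -0.43 with Tac1, that of the thalamic markers -0.47, -0.43 and, with Nmu, -0.60, that of the striatal markers -0.29 with each of Scg2 and Tac1, that of the choroid plexus markers -0.39 and -0.25, and that of the septal, preoptic and amygdalar markers 0.03 and 0.22. Called along Scg2 were 2 of 11 cortical, 2 of 11 thalamic, 2 of 10 striatal, 2 of 11 choroid plexus and 0 of 12 septal, preoptic and amygdalar markers. The part of these tissues in the correlations of the members was not tested.

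The genes most like each member over the 18 arrays, by Pearson r with predicted genes passed over, were mostly outside the peptide family. For Scg2 they were Nucb2, which encodes the precursor of nesfatin-1 (r = 0.95), the protein kinase A inhibitor Pkia (0.94) and Tac1. For Tac1 they were Scg2, Tspan6 (0.93) and Btf3l4 (0.92). Penk was most like Plrg1, the synuclein gene Sncg and Med31 (0.88 each). Adcyap1 was most like Tusc3 (0.89), the protein kinase A subunit gene Prkar2a (0.86) and Rnf128 (0.83), and Nmu most like the GABA receptor subunit gene Gabra5 (0.87), Slc36a4 (0.84) and Gna13 (0.84). All of these but Slc36a4 and Gna13 had an adjusted limma p below 0.05, but no gene at all was called along Penk without array 1 of wt/WT, along Adcyap1 without any 1 of 6 arrays, or along Nmu without any 1 of 14. The nearest genes of the other members had no adjusted p below 0.05: Psma5 (0.86), Enkur (0.83) and Eef1akmt1 (0.82) for Gal, Cuta (0.86), Pigz (0.81) and Dmac2 (0.79) for Cck, Cenpl (0.84), Smyd1 (0.82) and Cryab (0.81) for Gnrh1, Gid8 (0.81), Fcgr1 (0.80) and Tubg2 (0.79) for Vgf, and Rcbtb2 (0.77), Bex4 (0.77) and Dcaf7 (0.75) for Nts.

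Wfs1 levels fell into separate sets that follow neither label, 10 arrays at 7.86 to 8.07 log2 and 8 at 8.36 to 8.72 log2, on either side of 8.2. The lower side held 2 ko/KO, 2 ko/WT, 3 wt/KO and 3 wt/WT arrays, and the upper side 3, 3, 1 and 1. These sides are measured values and not genotypes, so members are only described on them, with no test. The ranges overlapped for 10 of 10 members. Medians were higher on the lower side for 7 and lower for Gal, Cck and Gnrh1. The shares over all genes were not computed, so these counts do not set the members apart from other genes. Nmu read 6.55, 6.68 and 6.87 log2 (lowest, median, highest) below and 6.19, 6.48 and 6.66 above. Vgf read 9.17, 9.41 and 9.44 below and 9.12, 9.27 and 9.31 above. Cck read 10.77, 11.08 and 11.32 below and 11.09, 11.25 and 11.43 above. Within the sides, where a relation can be tested, none of 20 correlations with Wfs1 had a permutation p below 0.05, and the lowest Benjamini-Hochberg value was 0.861. The smallest p belonged to Adcyap1 above the gap (r = 0.61, exact permutation p = 0.117, rho = 0.50, exact permutation p = 0.208, n = 8; r = 0.41 without the 2 farthest arrays) and to Nts below it (r = -0.48, permutation p = 0.153, rho = -0.48, permutation p = 0.165, n = 10; r = -0.27 without them).

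**Figure D4:**
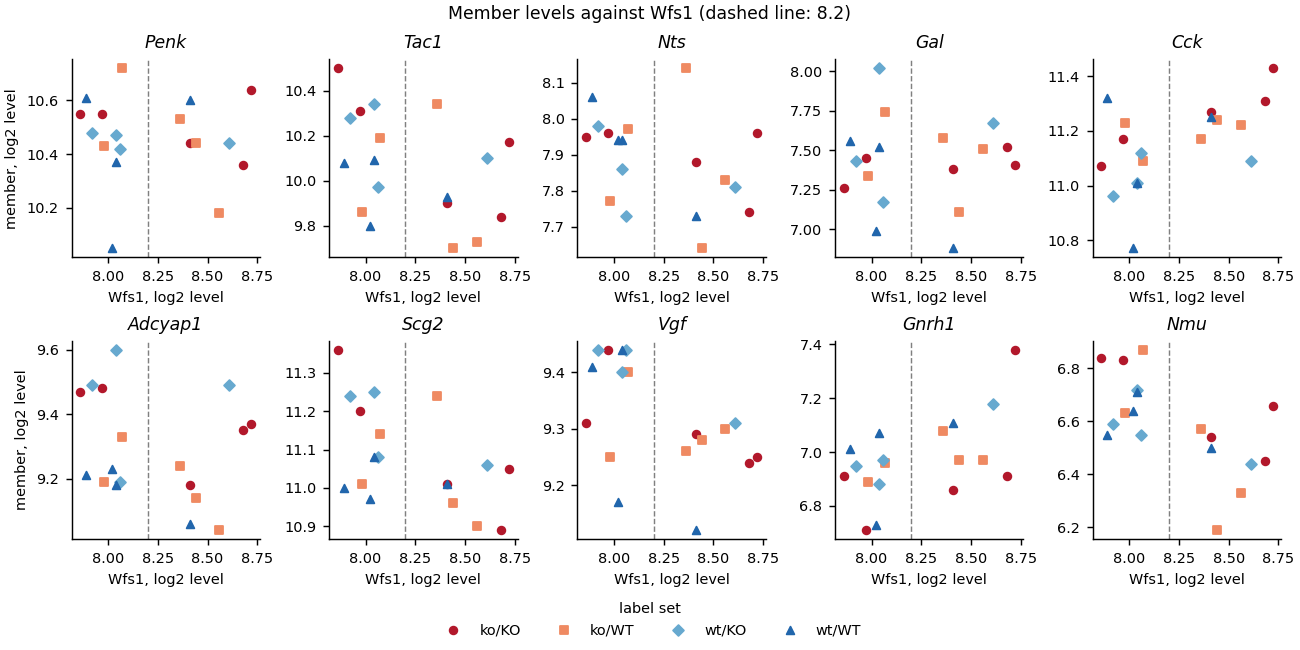
Each member (vertical axes, log2, separate scales) against Wfs1 (horizontal axis, log2), 1 point per array, with a dashed line at 8.2. The arrays lie at 7.86 to 8.07 and 8.36 to 8.72 in Wfs1, and every member's levels overlap between the sides.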

How the data were processed

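Hypothalamus RNA of 18 arrays was analysed from the deposited log2 values of 34760 probesets, 1.11 to 14.54. RMA and MAS5 are named per the submitters' processing notes, without role or version. Of the probesets, 21640 had 1 gene symbol, 1321 several and 11799 none; single-symbol probesets gave 19937 genes, each by its brightest probeset (names from GEO's platform annotation, checked against RefSeq). Differences between labels, and relations along each member's level, were fitted with limma 3.58.1 in R 4.3.3 over all genes and adjusted by Benjamini-Hochberg at 0.05; the procedure was tested on simulated data. Pair correlations used 100000 resamples (scipy 1.17.1). The number of arrays limits the precision. The genes named are the members, Wfs1, the named pairs, the 3 genes most like each member, granule and receptor genes, and markers. The members and lists were chosen with earlier results of these data known. Quantile normalization, a filter on dim genes, mean probesets, a trended robust variance, removal of label set means and leaving out each array were tried. Removal of the first principal component and of the 3 arrays of lowest spread was added after seeing the data. Correlations over all pairs of genes and the shares of each list called were computed as descriptions.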

Additional observations from a re-analysis of the deposited data

How the results depend on the processing

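No paired analysis was made: the titles carry numbers, but the labels do not say that these pair the arrays. By title ending and genotype field, 0 genes were called under every alternative run. Of the members' uncalled differences, some changed sign. With quantile normalization they were -0.00571 (Nts, ending), -0.0143 (Cck, field) and 0.0149 log2 (Gnrh1, field). Without the 3 arrays of lowest spread they were -0.00556 (Penk) and -0.035 (Gal) by ending, and -0.00268 (Penk), 0.0141 (Nts) and -0.0771 log2 (Cck) by field. Leaving out each array, differences by ending ran from -0.000286 to 0.0878 (Penk), -0.0693 to 0.0196 (Tac1), -0.0257 to 0.0299 (Nts), -0.05 to 0.113 (Gal), -0.0624 to 0.0147 (Adcyap1), -0.0418 to 0.0131 (Scg2), -0.0697 to 0.00472 (Gnrh1) and -0.0275 to 0.0481 log2 (Nmu), and by field from -0.00167 to 0.0821 (Penk), -0.0481 to 0.0144 (Nts), -0.0324 to 0.0393 (Cck) and -0.0554 to 0.0283 log2 (Gnrh1). Genes called along a member under quantile normalization numbered 15 (Penk), 674 (Tac1), 1 (Gal), 0 (Adcyap1) and 1142 (Scg2). Without the dimmest 40% of genes they numbered 724 (Penk), 2597 (Tac1), 3170 (Scg2), 1 (Gnrh1) and 1 (Nmu). Without the 3 arrays of lowest spread they were 0 (Penk), 1489 (Tac1), 545 (Adcyap1), 1833 (Scg2) and 1 (Nmu). With the first principal component removed they were 2 (Penk), 0 (Tac1), 3 (Gal), 1 (Cck), 0 (Adcyap1), 25 (Scg2) and 0 (Nmu). With label set means removed they were 23 (Penk), 1230 (Tac1), 0 (Adcyap1), 2326 (Scg2), 1 (Gnrh1) and 0 (Nmu). Leaving out each array they ran from 0 to 706 (Penk), 489 to 4634 (Tac1), 0 to 2 (Gal), 0 to 872 (Adcyap1), 1026 to 4303 (Scg2), 0 to 1 (Gnrh1) and 0 to 4 (Nmu). Of the pairs, quantile normalization ended the calls of Tac1 with Nts (r = 0.67) and Adcyap1 with Scg2 (0.57), and made one of Cck with Scg2 (-0.65). Removing the first principal component ended Tac1 with Nts (0.62), Adcyap1 (0.55) and Nmu (0.74), and Scg2 with Adcyap1 (0.42) and Nmu (0.68). Removing label set means ended Adcyap1 with Tac1 (0.69) and Scg2 (0.60). Nmu and Gnrh1 are themselves among the dimmest 40% of genes. Without these genes, the label differences of both and the calls of Nmu along Tac1 and Scg2 were therefore not tested. Leaving out each array, r ran from 0.58 to 0.71 (Tac1, Nts), 0.66 to 0.77 (Tac1, Nmu), -0.64 to -0.30 (Cck, Scg2), 0.61 to 0.75 (Adcyap1, Scg2) and 0.60 to 0.71 (Scg2, Nmu). The cause of these changes was not tested.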
